A study of Penaeus vannamei with 11 samples.

Results

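Anti-lipopolysaccharide factors are small antimicrobial proteins of crustaceans. The 8 genes described here are those of 18803 in the table whose description opens with an entry containing the words anti-lipopolysaccharide factor. They were followed in hemocytes, the circulating blood cells, of the Pacific white shrimp Penaeus vannamei. The groups were 3 libraries of females given the agent Vibrio parahaemolyticus, 3 of control females, 3 of males given Vibrio parahaemolyticus and 2 of control males, numbered 2 and 3. The treatment label reads immune in all 11 libraries, controls included. The labels give no dose, route or time for Vibrio, no age and no strain. They also do not say if the libraries within a group are from different animals, from pools or from repeated runs, so each p value reflects library-to-library spread that may be technical. The libraries were made from total RNA of pelleted hemolymph cells.

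Proteins of this family carry a positively charged loop closed by a disulfide bond, which binds lipopolysaccharide, the main component of the outer membrane of Gram-negative bacteria such as Vibrio. They were originally purified from horseshoe crab hemocytes, and in penaeid shrimp hemocytes are a main site of their expression. Shrimp genomes hold several copies, and the Toll and IMD pathways, which act through NF-kappa-B factors, are known to control antimicrobial peptide genes in arthropods.

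The labelled cell type was checked against marker lists. Hemocyte markers (33 genes, led by penaeidins, a crustacean hematopoietic factor, hemocyte transglutaminases and an integrin beta subunit) made up between 3.16 and 6.87% of all counts per library. Hepatopancreas markers (125 genes, 5 of them at 0 in every library) took 0.113 to 0.475% and muscle markers (70 genes, 1 of them at 0 in every library) 0.214 to 0.416%. Cathepsin L led the first list (378 FPKM, next gene 96.0) and arginine kinase the second (910 FPKM, next gene 75.7). How much of these shares is expression by hemocytes themselves was not tested. Hepatopancreas markers were highest in control male replicate 3 (0.475%), Vibrio female replicate 1 (0.420%) and control female replicate 2 (0.308%). In bulk RNA a smaller share of one kind of hemocyte and less RNA per cell cannot be told apart.

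A single copy carried nearly all of the expression. LOC113800363 averaged 10237 ± 3548 FPKM (SD, n = 11), the third highest mean in the table, and held 91.1% of the FPKM summed over the 8 members and all libraries. LOC113810045, whose name adds the word partial, averaged 920 ± 475 FPKM and held 8.19%. LOC113820510 averaged 71.3 ± 16.1 FPKM (0.635%) and LOC113810108 5.62 ± 3.41 FPKM (0.05%). The steps between these 4 genes are levels per length. Comparing them between genes assumes correct gene lengths and a correct split of reads between copies of like name, which was not tested.

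The remaining 4 copies averaged under 5 FPKM. LOC113812204 averaged 1.54 FPKM and was detected in every library, with 11 to 131 counts. LOC113806372 had 13 counts in control female replicate 2 and 0 counts in the other 10 libraries. LOC113811034 had 3 counts, in the same library, and 0 in the other 10. LOC113807190 had 0 counts in all 11 libraries, which allows up to 3 counts in each if counts are independent, or 0.0557 to 0.0755 per 1e6 of a library's unscaled total. Small counts were mostly even, so this limit may be too low. Control female replicate 2 was the third highest in hepatopancreas markers, and whether that bears on these 2 traces was not tested.

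A ninth gene falls outside the rule by its spelling. LOC113830625, named antilipopolysaccharide factor isoform 5, averaged 277 ± 56 FPKM (SD, n = 11), between LOC113810045 and LOC113820510. With it in the sum, LOC113800363 held 88.9% of the FPKM. It was the least variable of the 3 most abundant genes, with a highest library 2.20 times the lowest, against 3.02 times for LOC113800363 and 3.45 times for LOC113810045.

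The 8 members lie on 8 different scaffolds of the deposited table, whose build is not named, so no positions are printed. In the RefSeq gene table of assembly ASM4276789v1, 6 of the 8 were matched by identifier. There LOC113820510 and LOC113810108 are neighbours with 0 genes starting between them, and 3 genes start between LOC113810108 and LOC113807190. LOC113810045 lies on the same chromosome, 651 genes away from the nearest of these, and LOC113800363 and LOC113812204 lie elsewhere. The 3 close neighbours averaged 71.3 FPKM (LOC113820510), 5.62 FPKM (LOC113810108) and 0 FPKM (LOC113807190). Over the 11 libraries, log2 CPM of LOC113820510 and LOC113810108 had a Pearson correlation of 0.14. Copies of like name can share reads, and no source used here says how such reads were counted, so the split between copies is uncertain.

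LOC113800363 was lowest in control females and lay at similar levels in the other 3 groups. Vibrio females had 14244, 14092 and 8956 FPKM, against 4889, 7675 and 5384 FPKM in control females. Vibrio males had 9275, 14773 and 9495 FPKM, against 13777 and 10045 FPKM in control males. All 3 control females were below every library of the other groups, and those groups overlapped each other. The share of all genes with control females below every other library was not computed. The group means were 12431 ± 3010 FPKM in Vibrio females, 5983 ± 1486 FPKM in control females, 11181 ± 3113 FPKM in Vibrio males (SD, n = 3 each) and 11911 ± 2639 FPKM in control males (SD, n = 2). In order of mean, Vibrio females, control males and Vibrio males did not differ beyond their spread, and control females came last, below the range of the group above them.

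Against controls, LOC113800363 had a log2 fold change of 1.06 with Vibrio in females (SE 0.32, 95% interval 0.36 to 1.77), higher in 3 of 3 libraries than any control female. The edgeR unadjusted p was 0.00704, the 55th smallest of 14295 genes, and the adjusted p over all genes was 0.986, so the gene was not called. In males the log2 fold change was -0.22 (SE 0.35, 95% interval -0.99 to 0.56, edgeR adjusted p = 0.944). Leaving out control male replicate 2 gave 0.18, so the direction rested on that library, and leaving out control male replicate 3 gave -0.52. The male effect minus the female effect was -1.28 (SE 0.47, 95% interval -2.32 to -0.24), with an edgeR unadjusted p of 0.0205 and an adjusted p of 0.740. The female contrast, this difference and the comparison of control males with control females all use the control females.

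Between the sexes, LOC113800363 had a log2 fold change of males over females of 1.12 in controls (SE 0.35, 95% interval 0.35 to 1.89, edgeR unadjusted p = 0.00859, adjusted p = 0.756). Both control males were above all 3 control females. Dropping control male replicate 2 gave 0.73, and dropping control male replicate 3 gave 1.45. With Vibrio the log2 fold change of males over females was -0.16 (SE 0.31, 95% interval -0.86 to 0.54, edgeR adjusted p = 1), which was -0.44 without Vibrio male replicate 2 and -0.020 without Vibrio male replicate 1.

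Marker levels also varied between the female groups. Hemocyte markers took 3.16 to 3.85% of the counts in Vibrio females and 3.64 to 6.87% in control females, so the group lowest in LOC113800363 reached the highest hemocyte marker share. Of the 31 hemocyte markers tested, 11 were higher and 20 lower with Vibrio in females, with a median log2 fold change of -0.22, against 0.05 over all genes. The part of cell composition in the difference was not tested. Hepatopancreas markers took 0.150 to 0.420% in Vibrio females and 0.113 to 0.308% in control females, and of 95 tested 71 were higher and 24 lower with Vibrio (median log2 fold change 0.53), the same direction as LOC113800363. Their part in the result was not tested. Over the 11 libraries, log2 CPM of LOC113800363 had a Pearson correlation of 0.17 with the hepatopancreas marker share (Spearman 0.17). Without the 3 libraries highest in hepatopancreas markers, an alternative chosen after the data were seen, the log2 fold change of LOC113800363 in females was 1.11. That fit dropped Vibrio female replicate 1 (14244 FPKM) and control female replicate 2 (7675 FPKM), each the highest of its group in FPKM of this gene. The value therefore also reflects which libraries were left.

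LOC113810045, the second copy, had another order of groups, with Vibrio males lowest. Vibrio females had 619, 1947 and 593 FPKM, against 605, 991 and 921 FPKM in control females. Vibrio males had 580, 564 and 676 FPKM, against 1695 and 924 FPKM in control males. In females a single library, Vibrio female replicate 2, stood high and the groups overlapped, while all 3 Vibrio males were below both control males. Control males had the highest mean (1310 ± 545 FPKM, SD, n = 2), followed by Vibrio females (1053 ± 775 FPKM), control females (839 ± 206 FPKM) and Vibrio males (607 ± 60 FPKM, SD, n = 3 each), and each group overlapped the next in that order.

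The log2 fold change of LOC113810045 with Vibrio was 0.35 in females (SE 0.48, 95% interval -0.73 to 1.42, edgeR adjusted p = 0.986) and -0.52 without Vibrio female replicate 2. In males it was -1.26 (SE 0.53, 95% interval -2.45 to -0.07), with an edgeR unadjusted p of 0.0398 and an adjusted p of 0.933. In males, dropping control male replicate 2 gave -0.59, and dropping control male replicate 3 gave -1.71. Hepatopancreas markers were also lower there: they took 0.124 to 0.199% of the counts in Vibrio males and 0.173 to 0.475% in control males, and of 95 tested 17 were higher and 77 lower, with a median log2 fold change of -1.61. Their part in the result was not tested. Over the 11 libraries, log2 CPM of LOC113810045 had a Pearson correlation of -0.12 with the share of these markers (Spearman 0.06). Without the 3 libraries highest in these markers the value for LOC113810045 in males was -1.68. That fit left control male replicate 2 as the only control male, as did the fit without replicate 3. The male effect minus the female effect was -1.60 (SE 0.72, 95% interval -3.21 to 0.003, edgeR adjusted p = 0.740), and -0.74 without Vibrio female replicate 2. Males over females gave 0.77 in controls (SE 0.53, edgeR adjusted p = 0.756). It was 0.11 when control male replicate 2 was left out and 1.25 when replicate 3 was left out. Without the 3 libraries highest in hepatopancreas markers, which again left only control male replicate 2, it was 1.28. The same contrast with Vibrio gave -0.83 (SE 0.49, edgeR adjusted p = 1), which was 0.033 without Vibrio female replicate 2.

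The balance of the first and second copies varied between libraries, as a ratio within a library that does not depend on its depth. FPKM of LOC113810045 came to 4.34, 13.8 and 6.62% of that of LOC113800363 in Vibrio females, against 12.4, 12.9 and 17.1% in control females. It came to 6.26, 3.82 and 7.12% in Vibrio males, against 12.3 and 9.20% in control males. The male groups did not overlap, and the female groups overlapped through Vibrio female replicate 2. This ratio was chosen after its values were seen and was not tested. The 8 members together took 1.14 ± 0.31% of the counts in Vibrio females, 0.589 ± 0.140% in control females, 1.02 ± 0.26% in Vibrio males (SD, n = 3 each) and 1.14 ± 0.28% in control males (SD, n = 2).

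**Figure D1:**
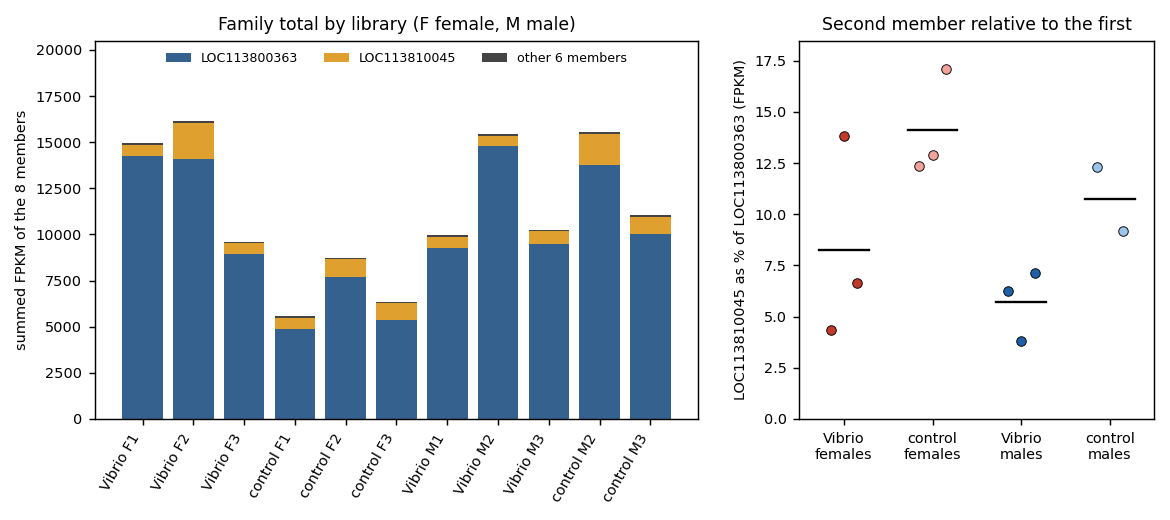
Left, summed FPKM of the 8 members in each library (bars, linear axis from 0), split into LOC113800363, LOC113810045 and the other 6 members. Right, FPKM of LOC113810045 as a percentage of that of LOC113800363 in each library (points) with a line at the group mean; Vibrio males lie at 3.82 to 7.12% and control males at 9.20 to 12.3%.

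LOC113820510 varied least among the 4 expressed members, with a highest library 1.84 times the lowest. Vibrio females had 55.4, 91.3 and 62.2 FPKM, against 63.9, 56.2 and 49.7 FPKM in control females. Vibrio males had 88.9, 90.0 and 59.8 FPKM, against 86.7 and 80.8 FPKM in control males. Control females were again the lowest group in mean (56.6 ± 7.1 FPKM, SD, n = 3), below Vibrio females (69.7 ± 19.1 FPKM), Vibrio males (79.6 ± 17.2 FPKM, SD, n = 3 each) and control males (83.8 ± 4.2 FPKM, SD, n = 2), and each group overlapped the next. Both control males were above all 3 control females.

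The log2 fold change of LOC113820510 with Vibrio was 0.31 in females (SE 0.25, 95% interval -0.25 to 0.86, edgeR adjusted p = 0.986) and -0.19 in males (SE 0.28, 95% interval -0.81 to 0.43, edgeR adjusted p = 0.938). The first was 0.014 without Vibrio female replicate 2 and the second -0.0067 without control male replicate 2. The male effect minus the female effect was -0.50 (SE 0.37, edgeR adjusted p = 0.742), and -0.21 without Vibrio female replicate 2. Males over females gave 0.67 in controls (SE 0.28, 95% interval 0.06 to 1.29), with an edgeR unadjusted p of 0.0346 and an adjusted p of 0.756, and 0.18 with Vibrio (SE 0.25, edgeR adjusted p = 1). The value with Vibrio was 0.030 without Vibrio female replicate 1 and 0.47 without Vibrio female replicate 2.

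LOC113810108 was low and uneven in all groups. Vibrio females had 10.0, 4.06 and 0.791 FPKM, against 5.10, 1.50 and 4.80 FPKM in control females. Vibrio males had 6.88, 4.60 and 12.6 FPKM, against 4.63 and 6.83 FPKM in control males. The highest library was 15.9 times the lowest, and every group overlapped the others in FPKM. The log2 fold change with Vibrio was 0.36 in females (SE 0.78, 95% interval -1.38 to 2.09) and 0.39 in males (SE 0.88, 95% interval -1.56 to 2.34), with edgeR adjusted p values of 0.990 and 0.958. Without Vibrio female replicate 1 the female value was -0.64 and without control female replicate 2 it was -0.042, and without Vibrio male replicate 3 the male value was -0.10. The male effect minus the female effect was 0.029 (SE 1.17, edgeR adjusted p = 1.000), a value that changed sign under several alternatives. Males over females gave 0.64 in controls (SE 0.86, edgeR adjusted p = 0.863) and 0.67 with Vibrio (SE 0.78, edgeR adjusted p = 1). The value in controls was 0.24 without control female replicate 2. It was 0.057 without the 3 libraries highest in hepatopancreas markers, which left control male replicate 2 as the only control male. The value with Vibrio was 1.67 without Vibrio female replicate 1, 0.16 without Vibrio female replicate 3 and 0.18 without Vibrio male replicate 3.

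LOC113812204, below 5 FPKM on average, was lowest in Vibrio males. It had 4.19, 1.99 and 0.858 FPKM in Vibrio females, against 0.363, 2.69 and 2.37 FPKM in control females. It had 0.708, 0.345 and 0.346 FPKM in Vibrio males, against 2.52 and 0.573 FPKM in control males. All 3 Vibrio males were below all 3 Vibrio females, at 12 to 23 counts in Vibrio males and 28 to 131 counts in Vibrio females. In the same contrast 79 of 95 hepatopancreas markers were lower in males (median log2 fold change -2.61), and their part in this difference was not tested. Over the 11 libraries, log2 CPM of LOC113812204 had a Pearson correlation of 0.26 with the share of these markers (Spearman 0.39).

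**Figure D2:**
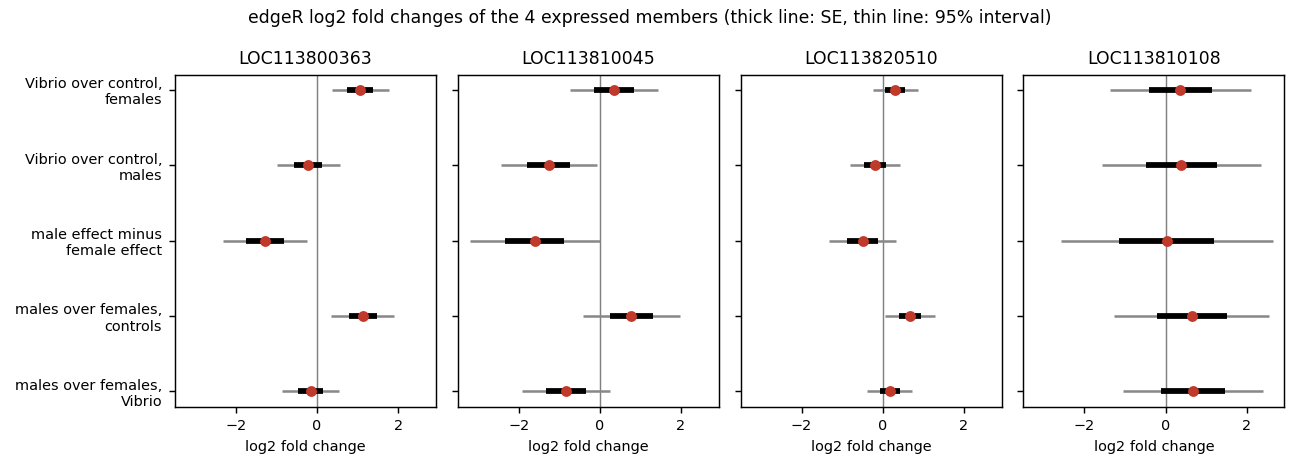
edgeR log2 fold changes (horizontal axis) of the 4 members averaging at least 5 FPKM in the 5 contrasts (rows), with SE as thick lines and 95% intervals as thin lines. For LOC113800363 the interval is above 0 for Vibrio over control in females and for males over females in controls, and no member was called at an adjusted p under 0.05.

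Of the 8 members, 5 passed the filter on low counts and were tested. With Vibrio in females, edgeR called 0 of the 5, as of all genes (0%), and DESeq2 called 0 members, against 0.157% of its genes. At an unadjusted p under 0.05 there was 1 member, LOC113800363, against 4.05% of the 14295 genes. The same gene was the 1 member whose CPM were higher without overlap, against 2.48% of genes, and 0 members were lower without overlap (3.90% of genes). All 5 were higher, with a median log2 fold change of 0.36, against 55.0% of genes and a median of 0.05.

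With Vibrio in males, edgeR called 0 of 5 members (0% of genes) and DESeq2 0 (0.0833% of genes). LOC113810045 was the 1 member at an unadjusted p under 0.05 (2.41% of genes) and the 1 member lower without overlap (11.5% of genes), with 0 higher (13.3% of genes). Of the 5, 1 was higher and 4 lower, with a median log2 fold change of -0.22, against -0.03 over all genes. For the difference between the effects, edgeR called 0 of 5 (0% of genes) and DESeq2 0 (0.150% of genes), and LOC113800363 was the 1 member at an unadjusted p under 0.05 (5.60% of genes). The median over the 5 was -1.28, against -0.08 over all genes. In the same contrast 16 of 95 hepatopancreas markers were higher and 79 lower, with a median of -2.17, and their part in the family's values was not tested.

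For males against females in controls, edgeR called 0 of 5 (0% of genes) and DESeq2 0 (0.0990% of genes). LOC113800363 and LOC113820510 were the 2 members at an unadjusted p under 0.05 (4.88% of genes). These 2 and LOC113810108 were the 3 members higher in males without overlap in CPM (9.54% of genes), with 0 lower (11.8% of genes), although LOC113810108 overlapped in FPKM. With Vibrio, edgeR called 0 of 5 (0% of genes) and DESeq2 0 (0.115% of genes). LOC113812204 was the 1 member at an unadjusted p under 0.05 (3.40% of genes) and the 1 member lower in males without overlap (2.95% of genes), with 0 higher (4.82% of genes). These counts rest on 5 genes.

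Correlations of log2 CPM between members over the 11 libraries are given as descriptions, since the libraries fall into 4 groups and each library enters every pair. Pearson's r with LOC113800363 was 0.64 for LOC113820510, 0.38 for LOC113810045, 0.28 for LOC113812204, 0.23 for LOC113810108 and 0.23 for LOC113830625. LOC113810045 had r = 0.65 with LOC113830625. With the hepatopancreas marker share, r was -0.29 for LOC113820510, -0.05 for LOC113810108 and -0.41 for LOC113830625.

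Genes were ranked by how like LOC113800363 they were over the 11 libraries. Among 8168 genes averaging at least 5 CPM, the 5 of descriptive name with the highest Pearson correlation were a serine/threonine-protein phosphatase PP1-beta catalytic subunit-like gene (LOC113820385, r = 0.92), V-type proton ATPase subunit D 1-like (LOC113809213, 0.92), thymosin beta-like (LOC113827561, 0.92), probable palmitoyltransferase ZDHHC24 (LOC113805586, 0.92) and 26S proteasome non-ATPase regulatory subunit 6-like (LOC113817394, 0.91). They held places 2 to 6, after a gene with no descriptive name. V-type ATPases acidify lysosomes and other vesicles, thymosin beta binds actin monomers, and the 26S proteasome degrades proteins. Thymosin beta-like had 2691 ± 457 FPKM in Vibrio females, 2056 ± 435 FPKM in control females, 2489 ± 179 FPKM in Vibrio males (SD, n = 3 each) and 2810 ± 16 FPKM in control males (SD, n = 2), with control females lowest in mean. It was picked for its likeness over these same libraries, so a like order of groups follows from the choice. Among the members, LOC113820510 ranked 1140th and LOC113810045 2670th of the 8168.

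Other antimicrobial effectors of hemocytes are given beside the family. The list held 12 genes of penaeidins, crustins, putative antimicrobial peptides and lysozymes, of which 10 were tested. With Vibrio in females 3 were higher and 7 lower (median log2 fold change -0.45), and in males 8 were higher and 2 lower (median 0.40). The penaeidins are also in the hemocyte marker list. edgeR and DESeq2 called 0 of the 10 in either sex, against edgeR's 0% of all genes and DESeq2's 0.157% in females and 0.0833% in males. At an unadjusted p under 0.05 there were 2 of the 10 in females (4.05% of all genes) and 0 in males (2.41% of all genes). For males against females with Vibrio, DESeq2 called 1 of the 10 (0.115% of all genes) and edgeR 0 (0% of all genes). In that contrast 7 were higher and 3 lower in males, and 3 had an edgeR unadjusted p under 0.05 (3.40% of all genes). In controls both methods called 0, with 0 at an unadjusted p under 0.05 (4.88% of all genes). The most abundant, putative antimicrobial peptide LOC113801825, averaged 13980 FPKM and had log2 fold changes of -0.04 in females (SE 0.32) and 0.23 in males (SE 0.36).

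Penaeidin-3a-like (LOC113808997), a shrimp peptide that binds chitin and kills mainly Gram-positive bacteria, had 8177 ± 1169 FPKM in Vibrio females and 13248 ± 4554 FPKM in control females (SD, n = 3 each). It had 16144 ± 3411 FPKM in Vibrio males (SD, n = 3) and 10646 ± 1626 FPKM in control males (SD, n = 2). Its male effect minus female effect was 1.23 (SE 0.46, edgeR unadjusted p = 0.0233, adjusted p = 0.740), against -1.28 for LOC113800363. Crustin-like protein (LOC113816267), a whey acidic protein domain peptide, gave 0.95 (SE 0.39, edgeR unadjusted p = 0.0331, adjusted p = 0.740). None of the 3 was called for this effect, and the difference between the genes was not tested. The most abundant effector, LOC113801825, gave 0.27 (SE 0.48) and penaeidin-2b-like (LOC113808998) 0.77 (SE 0.65). Lysozyme C-like (LOC113802295) gave -0.31 (SE 0.82), the direction of LOC113800363. Of the 10 tested effectors 8 were above 0 and 2 below (median 0.86). At an edgeR unadjusted p under 0.05 there were 3 of the 10, against 5.60% of all genes.

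**Figure D3:**
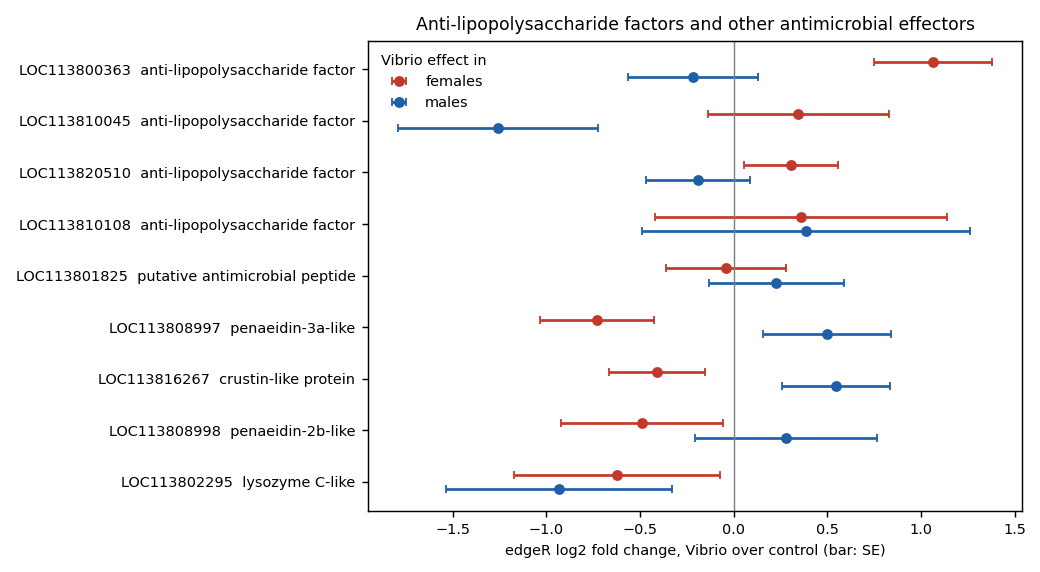
edgeR log2 fold changes of Vibrio over control in females and in males (points, with SE as bars) for the 4 members averaging at least 5 FPKM and the 5 most abundant other antimicrobial effectors. LOC113800363 lies at 1.06 in females and -0.22 in males, and penaeidin-3a-like LOC113808997 at -0.73 in females and 0.50 in males.

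Of 21 listed Toll and IMD pathway genes 18 were tested, with 8 higher and 10 lower with Vibrio in females (median log2 fold change -0.10) and 10 higher and 8 lower in males (median 0.03). edgeR called 0 of the 18 in each of the 5 contrasts, as of all genes (0%), and DESeq2 called 0, against 0.0833 to 0.157% of all genes. At an unadjusted p under 0.05 there were 0 of the 18, against 2.41 to 5.60% of all genes over the 5 contrasts. Protein spaetzle (LOC113810575), the ligand of Toll, was the most abundant at 162 FPKM, with log2 fold changes of -0.08 in females (SE 0.36) and -0.54 in males (SE 0.40). An NF-kappa-B p105 subunit-like gene (LOC113806131), of the factor family downstream of both pathways, had 0.06 in females (SE 0.17) and -0.35 in males (SE 0.19). NF-kappa-B inhibitor cactus-like (LOC113823636), of a family that holds Toll pathway factors in the cytoplasm, had -0.39 in females (SE 0.55) and -1.15 in males (SE 0.60, edgeR unadjusted p = 0.0859). Its control males had 15.7 and 132 FPKM, on either side of all Vibrio males (29.3 to 37.6 FPKM). Spaetzle's control males, at 110 and 332 FPKM, also lay on either side of the Vibrio males (122 to 180 FPKM). For the p105 gene 1 control male (114 FPKM) lay within the Vibrio males (111 to 119 FPKM), and the other had 165 FPKM. The male values of these genes thus leaned on 1 control male each.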

How the data were processed

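RNA-seq of hemocytes gave 11 libraries in 4 groups, taken from the library titles. The authors deposited raw counts and FPKM values (fragments scaled by gene length and sequencing depth) for 18803 genes, per the file headers. The submitters' processing notes name cutadapt 1.9 and FastQC. The aligner, the counter, the build and whether strand was used are not stated in any source used here. Counts totalled 39733829 to 53837438 per library. Of the counts from 1 to 20, 61.3 to 68.2% were even, so counts are not independent fragments. Where a gene had 0 counts the limit given is 3 counts, a limit that holds for independent counts, may understate the true limit and covers counting error only.

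Levels are the deposited FPKM. Tests used the counts and edgeR 4.0.16 (R 4.3.3): filterByExpr kept 14295 genes and left out 4508, counts were scaled by TMM, and a robust quasi-likelihood model with 4 group means was fitted to all 11 libraries. All 5 contrasts were two-sided, with Benjamini-Hochberg adjustment over all genes tested and a call at an adjusted p under 0.05. Standard errors (SE) were taken from the F statistic as the fold change on the log2 scale over its root, and intervals are 95%. CPM are counts scaled to a depth of 1e6 after TMM. Alternatives used DESeq2 1.42.0, limma 3.58.1 on log2(FPKM + 1) for genes with at least 1 FPKM in at least 2 libraries, other scaling, no filter, the groups compared alone, a replicate block and each library left out.

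The members were found by name. Members averaging at least 5 FPKM got values in every library and all tests. Likeness of pattern was Pearson's correlation of log2(CPM + 1) among genes averaging at least 5 CPM, with the 5 most like genes of descriptive name reported. Members and lists were chosen with earlier results of these data known. Lists came from name patterns: the Toll and IMD list lost 2 genes by name, the hemocyte list lost 19 and gained 5, and the hepatopancreas list lost 5.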

Additional observations from a re-analysis of the deposited data

How the results depend on the processing

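Under all alternatives run, the number of members called stayed at 0 in each of the 5 contrasts, and the smallest adjusted p of any of the 4 tested members averaging at least 5 FPKM was 0.211 (LOC113800363 in females, DESeq2). Over all genes the main edgeR fit called 0 in each contrast, and edgeR fits with a library left out called 0 or 1. DESeq2 called 25 and 15 with Vibrio in females and males and 26 for the difference between the effects. It called 14 and 17 for males against females in controls and with Vibrio. Of 356 alternative log2 fold changes of those 4 members, 339 kept their direction and 17 changed it. The cause of the changes was not tested. The 356 include fits that left out a library of a group outside the contrast. Such fits hardly move the value, as for LOC113800363 in females, at 1.06 without Vibrio male replicate 1. The count of 339 therefore overstates how stable the directions were. LOC113810108 in females gave -1.03 without the 3 libraries highest in hepatopancreas markers. Its difference between the effects gave -0.054 with median-of-ratios size factors and with DESeq2, and -0.0022 with no filter. Leaving out each library in turn gave -0.52 to 0.18 for LOC113800363 in males, -0.52 to 0.65 for LOC113810045 in females and -1.14 to 0.033 for it in males against females with Vibrio. For LOC113810108 it gave -0.64 to 0.87 in females, -0.10 to 0.65 in males and -0.48 to 1.02 for the difference. LOC113800363 held 90.5 to 91.7% of the family's FPKM when a library was left out. Fits without a control male assume that the remaining one varies like the other groups.

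Whether same-numbered libraries are paired could not be settled. Their deviations from group means had a median correlation of 0.04 over 15 pairs (-0.48 to 0.55), 5 of them over 0.1. For 30 pairs of other numbers the median was 0.005 (-0.57 to 0.37). Of 11 libraries, 6 were closest to one of their own number. The 2 control males have mirrored deviations by construction, which limits this check. With the replicate number as a block, 0 members were called in each contrast, LOC113800363 in females had a log2 fold change of 1.05, and the difference between the effects for LOC113810108 was -0.28. Depth limits LOC113806372, LOC113811034 and LOC113807190, which had at most 13 counts in a library.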
